A study of Vitis vinifera with 6 samples.

Results

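Proanthocyanidins, the condensed tannins of grapevine, are chains of flavan-3-ol units built at the end of the flavonoid pathway. Leucoanthocyanidin reductase (LAR) makes catechin-type units from leucoanthocyanidins, and anthocyanidin reductase (ANR) makes epicatechin-type units from anthocyanidins, which are also the precursors of the red pigments. In grapevine, R2R3-MYB transcription factors switch these enzymes on: MYBPA1 is known as an activator of the proanthocyanidin branch, while MYB5a and MYB5b act more broadly on the flavonoid pathway. The 6 genes described here are the enzymes ANR (VIT_00s0361g00040), LAR1 (VIT_01s0011g02960) and LAR2 (VIT_17s0000g04150) and the regulators MYBPA1 (VIT_15s0046g00170), MYB5a (VIT_08s0007g07230) and MYB5b (VIT_06s0004g00570). They were picked by locus name, with earlier results of these data known, and each was read by 1 probe among the 34369 probes other than controls on the array. Gene names were paired with loci from knowledge of the pathway, since the scanner files carry locus names only.

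The samples were fully expanded leaves of the grapevine (Vitis vinifera) cultivar Syrah, from plants of the BVRC12 clone grown in a greenhouse after regeneration from anther calli. Leaves of 3 control samples and of 3 samples labelled as overexpressing CARPO, a transcription factor of the NAC family tied in the series title to organ maturation and ripening, were each hybridised to 1 one-colour (Cy3) Agilent array. The comparison asked how leaf transcripts differ between transgenic and control plants. The labels give neither the promoter of the transgene, nor the line behind each sample labelled overexpression, nor whether the controls were transformed. Nor do they state that replicates were separate plants, so that p-values measure the spread between these samples, which may be partly technical. In whole leaves, fewer cells of a type and less RNA per cell cannot be told apart.

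The labels were checked first, and the arrays called labelled overexpression are named so throughout because the check did not bear out every label. The probe of VIT_08s0007g07670, the locus taken as CARPO from knowledge of the study, had an intensity of 271 on labelled overexpression replicate 3, but of 10.1 and 15.1 on labelled overexpression replicates 1 and 2, against 12.4 to 50.4 on the controls. The check rests on a single probe, and which stretch of the transcript it reads was not examined. Most of its values were dim, and that of control replicate 1 was not well above background. Labelled overexpression replicate 3 also stood apart across 18929 probes seen on all arrays, with a Pearson's r of 0.810 to 0.854 with the other 5 arrays, where no other pair was below 0.883. It was alone in its scan and on its slide. It had 2103 outlier-marked spots, where the other 5 arrays had 15 to 607. Its share of spots well above background, 68.4%, was the lowest. The cause was not tested, and results are therefore given with and without this array. Levels below are log2 intensities relative to the 75th percentile of the same array, which was set to 0, and differences are labelled overexpression minus control. Levels of different probes are not compared, since a probe's brightness also depends on its sequence.

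All 36 spots of the 6 genes (6 probes on 6 arrays) were well above background, and 0 were saturated. The scanner software put the error of these spots at 10.0% to 13.6% of the signal, or about 0.14 on the log2 scale. The range among the labelled overexpression arrays was larger than that at every gene, from 0.32 at MYB5a to 6.42 at MYBPA1. A range over 3 arrays tends to exceed the error of 1 spot, so the range at MYB5a does not show a spread beyond that error. None of the 6 genes (0) passed a Benjamini-Hochberg adjusted p of 0.05 with limma, where 19 of 23752 probes (0.08%) did, or 0.0751% in the fit with outlier-marked spots kept that was used for ANR. Without labelled overexpression replicate 3 none (0) passed either, where 0.415% of probes did. A single gene, MYB5a, had an unadjusted p under 0.05, where 15.1% of all probes tested did. The fitted difference was below 0 for 4 genes (ANR, LAR1, MYBPA1 and MYB5b) and above 0 for 2 (LAR2 and MYB5a). Its median over the 6 genes was -0.98, beside 0.0038 over all probes tested. The median over the 6 genes was -0.48 without labelled overexpression replicate 3, beside 0.05 over all probes tested then.

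**Figure D1:**
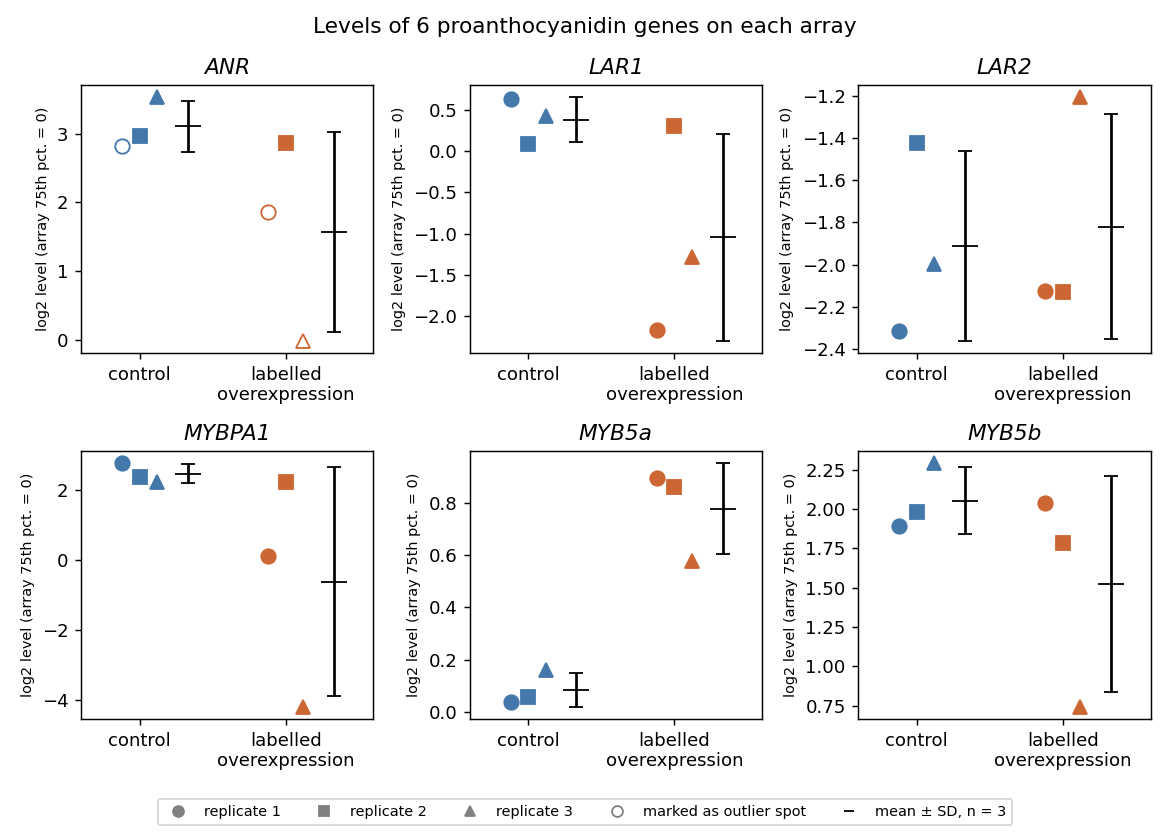
Log2 level (vertical axis, relative to the array's 75th percentile, a separate scale in each panel) of the 6 genes on the control arrays (blue) and the arrays labelled overexpression (orange), with the mean ± SD of n = 3 beside each group and open symbols for spots marked as outliers. MYB5a is higher on all 3 labelled overexpression arrays, whereas ANR, LAR1 and MYBPA1 are spread widely there, with labelled overexpression replicate 2 near the controls.

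Among the enzymes, ANR diverts anthocyanidins into epicatechin units. The control arrays gave a spot intensity of 6443 (replicate 1), 6397 (replicate 2) and 11947 (replicate 3), and the labelled overexpression arrays gave 2418, 8973 and 918 in the same order. Labelled overexpression replicates 1 and 3 were thus the dimmest of the 6 arrays, and replicate 2 lay among the controls once each array was scaled. As a log2 level, ANR stood at 3.11 ± 0.37 (SD, n = 3) in controls against 1.57 ± 1.46 (SD, n = 3) under the overexpression label. The spot was marked as non-uniform by the scanner software on 3 arrays, control replicate 1 and labelled overexpression replicates 1 and 3. Over all probes these 3 arrays had 607, 307 and 2103 outlier-marked spots, where the other arrays, all of scan 2, had 15 to 22. Without the marked ANR spots only labelled overexpression replicate 2 was left in its group. ANR thus had no value in the planned fit, which needs 2 usable spots per group. With marked spots kept, the limma difference of ANR was -1.54 (SE 0.72, 95% interval -3.29 to 0.21, adjusted p 0.394), with p = 0.2 by an exact permutation test (two-sided, as are all others here), which cannot go below 0.1 with 3 against 3 arrays. In size, the difference was smaller than the range of 2.87 among the labelled overexpression arrays, and its interval included 0. Without labelled overexpression replicate 3 the difference was -0.75 (adjusted p 0.377 with limma).

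LAR1 makes catechin-type units. Its log2 level was 0.63, 0.08 and 0.42 on control arrays 1 to 3 and -2.17, 0.31 and -1.28 in labelled overexpression replicates 1, 2 and 3. Here labelled overexpression replicate 1, not replicate 3, was the lowest, and replicate 2 lay inside the control range. In spot intensity, LAR1 gave 1405, 866 and 1390 in controls against 149, 1526 and 380 in the labelled overexpression group. The limma difference was -1.42 (SE 0.62, 95% interval -2.94 to 0.09, adjusted p 0.358), and the exact permutation p was 0.2. It was about as large without labelled overexpression replicate 3, at -1.31 (adjusted p 0.403), and smaller without labelled overexpression replicate 1, at -0.86 (adjusted p 0.494). When labelled overexpression replicate 2 was left out instead, it was -2.10 (limma adjusted p 0.0838), and the threshold was not reached either.

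LAR2, the other leucoanthocyanidin reductase gene, did not share that pattern. Its log2 level was -2.31, -1.42 and -1.997 on control arrays 1 to 3 and -2.13, -2.13 and -1.20 in labelled overexpression replicates 1, 2 and 3. The groups overlapped, and their ranges were almost alike, 0.89 among controls and 0.93 among the arrays labelled overexpression. The limma difference of LAR2 was 0.09 (SE 0.37, 95% interval -0.82 to 0.997, adjusted p 0.930). This interval leaves room for a change of nearly 1 log2 unit in either direction. Without labelled overexpression replicate 3, the array with the highest LAR2 level, the difference was -0.22 (adjusted p 0.755). It was -0.11 without control replicate 1, and its sign is thus not settled.

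The enzyme probes were also set against each other within each array, which removes any scaling between arrays. The log2 difference of LAR2 minus LAR1 was -2.94, -1.51 and -2.42 on control arrays 1 to 3 and 0.04, -2.44 and 0.08 in labelled overexpression replicates 1, 2 and 3. LAR1 was thus lower relative to LAR2 on labelled overexpression replicates 1 and 3, while replicate 2 was inside the control range. The group difference of 1.52 had an exact permutation p of 0.3, or 0.45 adjusted over the 3 pairs compared. LAR1 minus ANR had a group difference of 0.11 (exact permutation p = 0.9, adjusted 0.9), with the labelled overexpression arrays ranging from -4.02 in replicate 1 to -1.27 in replicate 3. Marked spots of ANR were kept in this pair. ANR and LAR1 were both low on labelled overexpression replicates 1 and 3, but not by the same amount: LAR1 was lowest on replicate 1 and ANR on replicate 3. On replicate 2 both lay inside the control range.

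Among the regulators, MYBPA1 had the largest fitted difference of the 6 genes and the widest range with all arrays used. With labelled overexpression replicate 3 left out, LAR1 (-1.308) was as far from 0 as MYBPA1 (-1.296), and the range over the other 2 labelled overexpression arrays was 2.47 at LAR1 and 2.11 at MYBPA1. Spots read 6262, 4297 and 4926 units of intensity in the controls, replicates 1 to 3, but 727, 5804 and 50.8 in the labelled overexpression group. On the log2 scale these were 2.78, 2.39 and 2.25 in controls and 0.12, 2.23 and -4.18 in the arrays labelled overexpression. Controls lay within 1.45-fold of each other, and the arrays labelled overexpression spanned 85.5-fold. That span rests on the dim spot of labelled overexpression replicate 3 (50.8), whose error, 13.6% of the signal, was the highest of the 36 spots. Relative to the control mean, labelled overexpression replicates 1, 2 and 3 lay at -2.35, -0.24 and -6.66 log2 units.

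The groups did not overlap at MYBPA1, but only by 0.02 log2 units, the gap between control replicate 3 and labelled overexpression replicate 2. That gap is smaller than the error of 1 spot. Such a lower, non-overlapping pattern occurred at 13.7% of the 21507 probes tested with 6 usable spots. The limma difference of MYBPA1 was -3.08 (SE 1.54, 95% interval -6.82 to 0.65, adjusted p 0.412), and 0.577% of all probes tested had a lower difference. The exact permutation p was 0.1, the smallest that 3 against 3 arrays can give. Without labelled overexpression replicate 3 the difference was -1.30 (SE 0.63, adjusted p 0.348), and without labelled overexpression replicate 2 it was -4.51 (adjusted p 0.157).

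MYB5a differed in the other direction. Its log2 level was 0.04, 0.06 and 0.16 on control arrays 1 to 3 and 0.89, 0.86 and 0.58 in labelled overexpression replicates 1, 2 and 3. Every labelled overexpression array was above every control, by at least 0.42. Both groups were tight at MYB5a, with an SD of 0.07 among controls and 0.17 among the arrays labelled overexpression (n = 3 each). The limma difference was 0.69 (SE 0.20, 95% interval 0.20 to 1.18, unadjusted p 0.0139), a 1.61-fold higher level. It did not pass once all probes were accounted for (adjusted p 0.209), and the exact permutation p was 0.1, the smallest possible. A higher, non-overlapping pattern occurred at 10.5% of probes, and an unadjusted p under 0.05 with a higher level at 5.85%. Without labelled overexpression replicate 3 the difference was 0.79 (adjusted p 0.117).

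MYB5b, a regulator closely related to MYB5a, did not share that pattern. Its log2 level was 1.89, 1.98 and 2.29 on control arrays 1 to 3 and 2.04, 1.79 and 0.74 in labelled overexpression replicates 1, 2 and 3. Only labelled overexpression replicate 3 lay clearly below the controls, replicate 1 was inside their range, and replicate 2 was just under it. The limma difference of MYB5b was -0.53 (SE 0.38, 95% interval -1.46 to 0.40, adjusted p 0.560). Without labelled overexpression replicate 3 it was -0.14 (95% interval -0.71 to 0.43, adjusted p 0.786).

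Within each array, MYB5b minus MYB5a was 1.85, 1.92 and 2.13 log2 units on control arrays 1 to 3 and 1.15, 0.93 and 0.17 in labelled overexpression replicates 1, 2 and 3. The groups did not overlap, and the difference between them was -1.22 (exact permutation p = 0.1, the smallest possible, or 0.3 adjusted over the 3 pairs). It was -0.93 without labelled overexpression replicate 3. The ratio of these regulators was thus shifted the same way on all 3 arrays labelled overexpression, in a test that cannot reach 0.05 with 3 against 3 arrays. How often other probe pairs show such a pattern was not computed. Relative to the control mean, MYB5a lay at 0.81, 0.78 and 0.49 on labelled overexpression replicates 1, 2 and 3. MYB5b lay at -0.01, -0.27 and -1.31, so the shift on replicates 1 and 2 was mostly that of MYB5a already given.

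**Figure D2:**
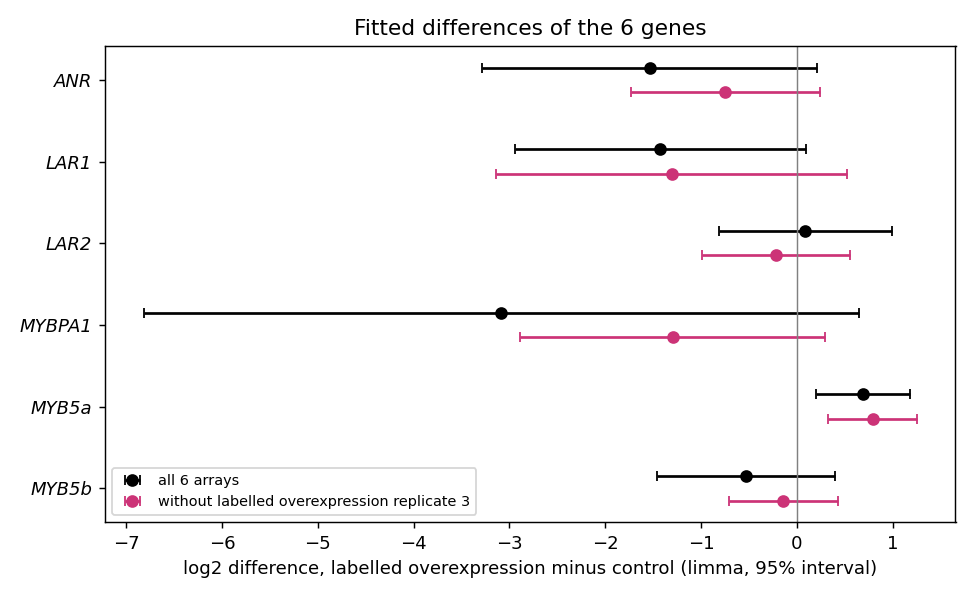
Fitted log2 difference of each gene, labelled overexpression minus control (horizontal axis, limma with 95% intervals), with all 6 arrays (black) and without labelled overexpression replicate 3 (pink); ANR is fitted with marked spots kept. The intervals of MYB5a lie above 0 in both fits (0.20 to 1.18 with all arrays), and those of the other 5 genes include 0.

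The 3 arrays labelled overexpression did not behave as one group at these genes. Relative to the control mean, the median over the 6 genes was -0.73 on replicate 1, -0.23 on replicate 2 and -1.49 on replicate 3. On replicate 2 the 5 genes other than MYB5a lay between -0.27 and -0.07 of the control mean, and MYB5a lay 0.78 above it. MYB5a was therefore the gene, of these 6, at which replicate 2 differed most from the controls. On replicate 1 the lowest values were those of LAR1 (-2.54), MYBPA1 (-2.35) and ANR (-1.25), while LAR2 (-0.22) and MYB5b (-0.01) stayed near the control mean. On replicate 3 they were those of MYBPA1 (-6.66), ANR (-3.11), LAR1 (-1.66) and MYB5b (-1.31), while LAR2 lay 0.71 above.

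Scan was recorded in the scanner files and was not balanced over the groups. Scan 1 held replicate 1 of each group, scan 2 held replicate 2 of each group with control replicate 3, and scan 3 held labelled overexpression replicate 3 with no control. The difference of MYB5a was 0.85 within scan 1 and 0.75 within scan 2. That of MYBPA1 was -2.66 within scan 1 and -0.09 within scan 2, that of LAR1 -2.79 and 0.05, and that of ANR -0.97 and -0.39. LAR2 gave 0.19 and -0.42, and MYB5b 0.15 and -0.35. MYB5a was thus alike in both scans that held both groups, and LAR1 and MYBPA1 were low in scan 1 but not in scan 2, where the array labelled overexpression came from another sample; scan and sample cannot be told apart there. With scan as a block, adjusted p with limma was 0.123 for MYB5a, 0.350 for MYBPA1, 0.398 for LAR1 and 0.293 for ANR.

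**Figure D3:**
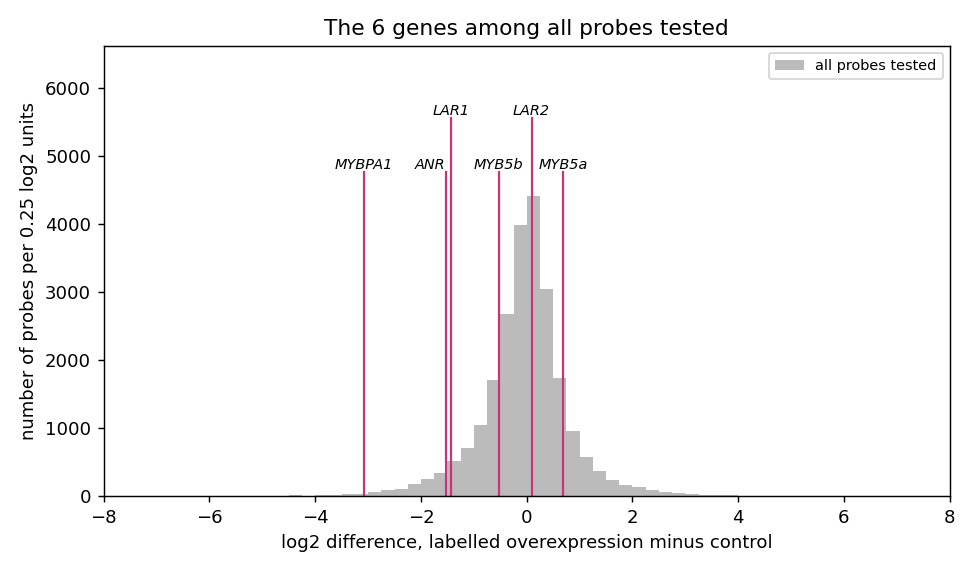
Number of probes (vertical axis) by fitted log2 difference (horizontal axis, labelled overexpression minus control, in steps of 0.25) for the 23752 probes tested, with the 6 genes as lines. MYBPA1, at -3.08, lies in the thin lower tail, a place that rests on the dim spot of labelled overexpression replicate 3 (-1.30 without that array). MYB5a, at 0.69, lies on the upper flank, where 13.0% of probes had a higher difference. The line of ANR comes from the fit with marked spots kept.

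Levels of the 6 genes were compared with each other across the 6 arrays, over 15 pairs. The marked spots of ANR, on control replicate 1 and labelled overexpression replicates 1 and 3, were kept. By Pearson's r the closest pair was ANR and MYBPA1, with an r of 0.969 (exact permutation p = 0.0264, adjusted 0.302) and Spearman's rho of 0.60 (exact permutation p = 0.242, adjusted 0.637). Without the 2 arrays farthest from the median ANR level, labelled overexpression replicates 1 and 3, r was -0.504, so the relation rests on those arrays. For LAR1 and MYBPA1, r was 0.700 (exact permutation p = 0.1, adjusted 0.302) and rho 0.771 (exact permutation p = 0.103, adjusted 0.637), and r was 0.591 without the same 2 arrays. ANR and MYB5b had an r of 0.905 (exact permutation p = 0.05, adjusted 0.302), a rho of 0.60 (exact permutation p = 0.242, adjusted 0.637) and an r of 0.962 without those arrays. By Spearman's rho the strongest pair was MYBPA1 and MYB5a, at -0.829 (exact permutation p = 0.0583, adjusted 0.637), where Pearson's r was -0.412 (exact permutation p = 0.451, adjusted 0.617) and -0.565 without the same 2 arrays. No pair (0 of 15) had an adjusted p under 0.05 by either measure.

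The probe most like each enzyme over the 6 arrays was looked for among 18929 probes seen on all arrays with no marked spot. For ANR itself, marked spots were kept. The most alike probe was VIT_05s0020g03540 for ANR (Pearson's r 0.998), VIT_17s0000g09700 for LAR1 (r 0.996) and VIT_12s0034g01910 for LAR2 (r 0.996), given as a description only. An r over 0.95 was found at 378 probes for ANR, 88 for LAR1 and 13 for LAR2. These counts were not repeated without labelled overexpression replicate 3, the array that stood apart, and are not read as numbers of co-expressed genes.

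The earlier steps of the pathway supply the reductases with substrate, though the last of them, leucoanthocyanidin dioxygenase, supplies ANR only. Beside the 6 genes, 9 loci assigned to the enzymes from chalcone synthase to leucoanthocyanidin dioxygenase were examined. The assignment rests on general knowledge of grapevine locus names, is not carried by the files, and was made with earlier results of these data known. Of the 9 loci, 8 were tested, and 1 was not well above background on any array (0 of 6). None (0) passed the adjusted threshold with limma, the smallest adjusted p being 0.159. All 8 had a fitted difference below 0, and 5 had an unadjusted p under 0.05 with a lower level, where 9.21% of all probes tested did. The groups did not overlap at 7 of the 8, each lower in the arrays labelled overexpression, beside the 13.7% above. Outlier-marked spots were kept in that count, and some of these loci had 1, whereas the 13.7% covers only probes with 6 usable spots. The median difference was -1.85, against -0.98 over the 6 proanthocyanidin genes and 0.0038 over all probes. These medians were -1.69 for the list and -0.48 for the 6 genes without labelled overexpression replicate 3. The sets are unlike, since the 6 genes include regulators. Their enzymes were at -1.54 (ANR), -1.42 (LAR1) and 0.09 (LAR2) with all arrays. ANR was fitted with marked spots kept, where the median over all probes was -0.0050.

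In this enzyme list VIT_14s0068g00930 had the lowest difference. Its log2 level was 3.95, 3.75 and 3.68 on control arrays 1 to 3 and 1.02, 2.75 and -1.24 in labelled overexpression replicates 1, 2 and 3 (limma difference -2.95, SE 0.95, adjusted p 0.238). All labelled overexpression arrays were below all controls, with replicate 2 again the nearest to them. The difference nearest to 0 was that of VIT_18s0001g12800, at -0.92 (SE 0.53, adjusted p 0.468), where the groups overlapped. The median over the 8 tested loci, relative to the control mean, was -2.62 on labelled overexpression replicate 1, -0.71 on replicate 2 and -2.74 on replicate 3, so that replicate 2 was the nearest to the controls, as in the 6 genes.

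A second list held 9 loci assigned, with the same reservation, to other MYB, bHLH, WD-repeat and WRKY regulators of flavonoid genes. All 9 were tested and none (0) passed the adjusted threshold with limma, or an unadjusted p under 0.05, where 15.1% of all probes tested had one. Fitted differences were below 0 for 4 loci and above 0 for 5, with a median of 0.14. They ran from -1.43 (SE 1.10, adjusted p 0.582) for VIT_11s0016g01310 to 0.79 (SE 0.33, adjusted p 0.336) for VIT_01s0011g04760. The value of VIT_11s0016g01310 came from labelled overexpression replicate 3 (log2 level -7.09, where the other 5 arrays had -3.29 to -2.66), and it was -0.09 without that array. The groups did not overlap at 1 of the 9 loci, with marked spots kept, beside 10.5% higher and 13.7% lower over probes with 6 usable spots. That locus, VIT_08s0040g03070, was higher in the arrays labelled overexpression by 0.41 (adjusted p 0.454) and is named here after its values were seen. Fitted differences thus went both ways in the regulator list, and all were below 0 at the tested loci of the enzyme list. The regulator list was not split into activators and repressors of flavonoid genes, so a common direction could not be presumed for it.

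**Figure D4:**
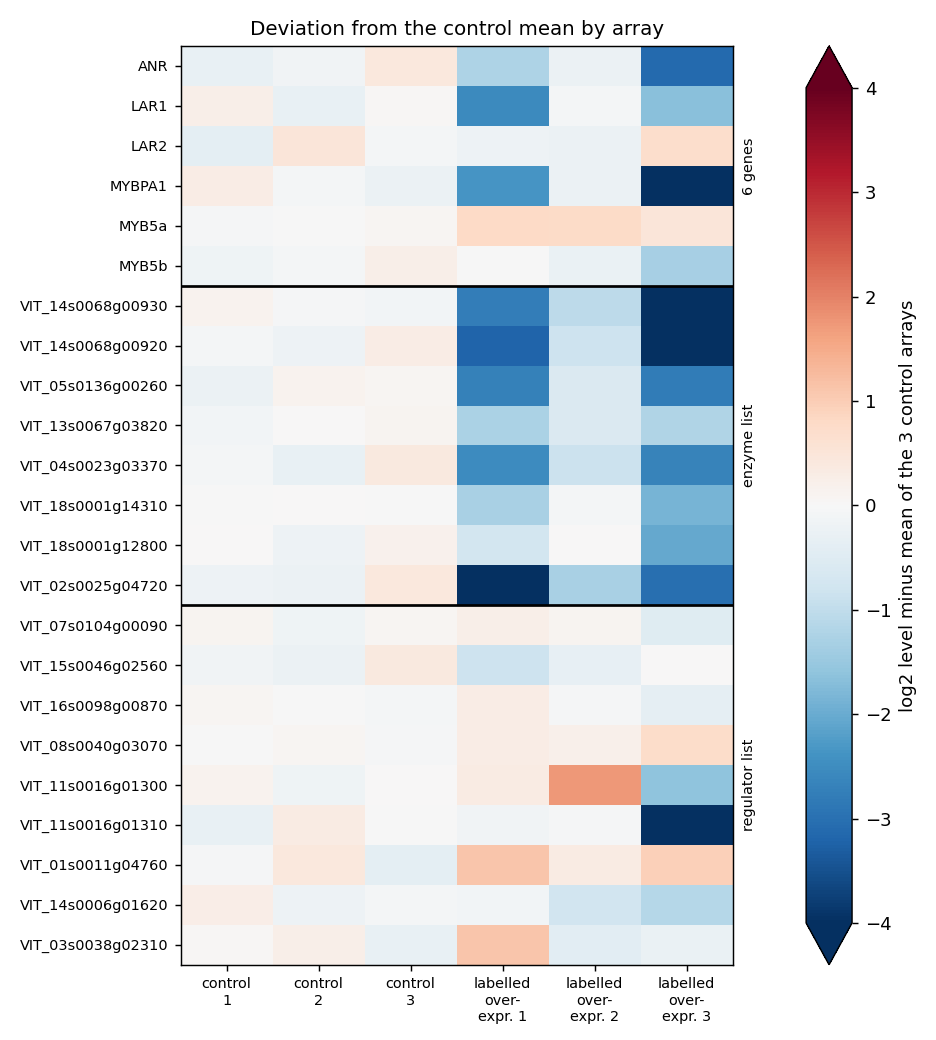
Log2 level minus the mean of the 3 control arrays (colour, blue lower and red higher, saturating at 4 units) for the 6 genes, the 8 tested loci of the enzyme list and the 9 of the regulator list (rows) on each array (columns). The enzyme list is blue on labelled overexpression replicates 1 and 3 (medians -2.62 and -2.74) and paler on replicate 2 (-0.71), and ANR, LAR1 and MYBPA1 are also palest on replicate 2, while MYB5a is red on all 3.

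The deposited processed table gives other values for labelled overexpression replicate 3 at these genes, with a smaller spread in the group. For MYBPA1 the table has 1020, 4403 and 3215 for labelled overexpression replicates 1, 2 and 3, whereas the scanner intensity of replicate 3, brought to the table's scale, was 51.5. The table's value was thus 62.4-fold above the scanner value of the sample it is named for. At ANR it was 6.02-fold above, at LAR1 2.14-fold, at MYB5b 2.20-fold and at MYB5a 1.23-fold, and at LAR2 it was 1.90-fold below. At each of the 6 genes the table's value for replicate 3 was within 0.0112% of what the average of the raw scanner signals of replicates 1 and 2 gives once divided by their average 75th percentile. The other 5 columns matched their own scanner signals within 0.00226% at these genes.

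With all 6 columns of the table, MYB5a passed the threshold, with a limma difference of 0.79 (SE 0.11, adjusted p 0.0134), as did 13.5% of the table's 23065 probes. Without the column of replicate 3, MYB5a had the same difference of 0.79 and did not pass (adjusted p 0.106). The difference of MYBPA1 was -1.10 (adjusted p 0.227) with the whole table, beside -3.08 from the scanner files. The column carries no spread of its own, and a pass in the table is not counted as a pass here.

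**Figure D5:**
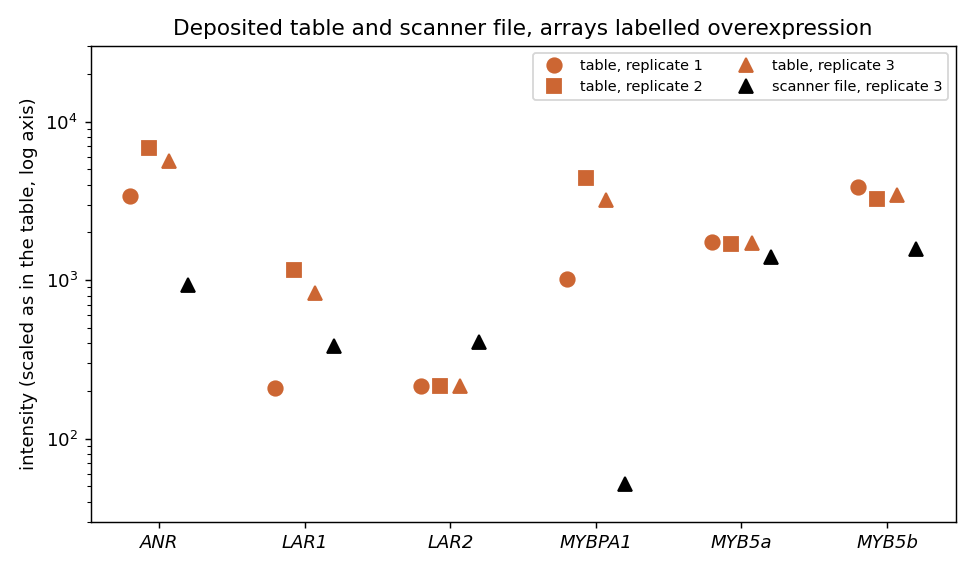
Intensity (vertical axis, log scale, scaled as in the deposited table) of the 6 genes in the table's columns for the 3 arrays labelled overexpression (orange) and in the scanner file of replicate 3 (black triangles). The orange triangles lie between the columns of replicates 1 and 2 at every gene, whereas the scanner value of MYBPA1 on replicate 3 is at 51.5.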

How the data were processed

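Total RNA of 6 leaf samples was labelled with Cy3, and intensity was read from the scans by Agilent Feature Extraction (version 10.5.1.1), with background removed per array and arrays left unscaled, per the file headers. The deposited processed table also holds intensity on a linear scale, and how it was made is not given in the sources used here. Per the file headers, marks of 0 or 1 flag outlier, saturated and well-above-background spots. Groups and replicate numbers came from the sample titles.

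For each spot the log2 of the processed signal was taken minus that of the 75th percentile of its array, control spots left out. Outlier-marked spots were set to missing, a group needed 2 or more usable spots, and a probe was tested if, in 1 group or both, all arrays had it well above background. All 23752 probes were fitted with limma 3.58.1 in R 4.3.3 without covariates, and p-values were adjusted (Benjamini-Hochberg) over all of them, with a threshold of 0.05. ANR, with 3 marked spots, was fitted with marked spots kept (23960 probes), a choice made after seeing the data. Single values were tested with exact two-sided permutation tests. The fit was tested on simulated data. Genes named are the 6 members, the CARPO locus, the loci of each list with the lowest and highest difference, and the probe most like each enzyme; VIT_08s0040g03070 was added after its values were seen. The members and lists were chosen with earlier results of these data known. Of the 6 gene names, 4 were found in the RefSeq gene table, but none of the loci (0), so no position or sequence is given. The number of arrays limits the precision. The alternatives were normexp (offset 50, on median spot signals), quantile and median scaling, the 75th percentile of probes that all arrays detected, other filters, array weights, a trended and robust variance, the deposited table, scan, slide and replicate number as blocks, and leaving out each array.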

Additional observations from a re-analysis of the deposited data

How the results depend on the processing

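Outlier-marked spots kept, and the deposited table less the column of labelled overexpression replicate 3, were added after seeing the data; the other alternatives were planned. Differences of ANR, LAR1, MYBPA1 and MYB5b kept their direction and stayed short of the threshold in every alternative run. They ranged from -2.18 to -0.63 for ANR (all with marked spots kept), -2.10 to -0.86 for LAR1, -4.51 to -1.10 for MYBPA1 and -0.79 to -0.14 for MYB5b. MYB5a was above 0 in all 20 alternatives (0.63 to 0.80, adjusted p 0.0134 to 0.627) and passed in 1, the deposited table with all columns (0.79). LAR2 was below 0 with array weights (-0.37), the deposited table (-0.22, also less that column), scan (-0.16) and slide (-0.22) as a block, and its values with 1 array left out spanned -0.22 to 0.33 (-0.11 without control replicate 1, -0.22 without labelled overexpression replicate 3); the cause was not tested. The smallest array weight, 0.175, was that of labelled overexpression replicate 3, and scan and slide blocks give that array a term of its own by construction.

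The number of probes past the threshold, 19, became 0 with normexp (1548 at an unadjusted p under 0.05), 0 without a filter on dim probes (3404), 7 with the filter on all 6 arrays, 228 with array weights, 3114 with the deposited table (94 less that column), 45 with scan and 69 with slide as a block; the cause was not tested. Leaving out 1 array gave 0 to 116: 0 without any 1 control array or labelled overexpression replicate 1, 116 without replicate 2 and 101 without replicate 3. In the enzyme list 1 locus passed with the deposited table, 0 to 1 did when 1 array was left out (1 without labelled overexpression replicate 2), and 0 did in the other alternatives; in the regulator list 0 did in all.

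With the replicate number as a block, 0 probes passed (3094 at an unadjusted p under 0.05), and the differences of the 6 genes were as without it, with adjusted p of 0.367 for MYB5a and 0.414 for MYBPA1. Correlations of deviations between same-numbered arrays were 0.253, 0.0499 and -0.0149 across 18929 probes, and 2 of 6 arrays correlated best with their own number. Numbers 1 and 2 also each share a scan across groups, so these values do not show whether the numbers pair the samples.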
